A study of Mus musculus with 8 samples.

Results

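Cullin ligase adaptors are the proteins that choose what a cullin ubiquitin ligase marks, and their transcripts were followed here in the gastrocnemius of 8 mice. The members were every protein-coding symbol of the 5 families Klhl (Kelch-like), Asb (ankyrin repeat and SOCS box), Fbxo, Fbxl and Fbxw (F-box proteins) with a number after the family name. Of the 131 symbols with such a name, 5 F-box genes (Fbxo21, Fbxo30, Fbxo31, Fbxo32 and Fbxo40) were left out by the rule, so that 126 of the 21833 symbols in the count tables were members. There were 36 Klhl, 18 Asb, 31 Fbxo, 18 Fbxl and 23 Fbxw genes. The rule used names only, not measured values, but the members were chosen with earlier results of these data known.

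The gastrocnemius is a calf muscle rich in fast fibres. By the design text and labels, all mice were male C57BL/6J aged 12 weeks. All received 100 µL of serum into the peritoneum on days 0 and 2, pooled from the K/BxN strain, whose antibodies pass arthritis to a recipient. The group labelled RA (n = 4) had the serum alone. The group labelled RA+Dipy (n = 4) also had dipyridamole, an inhibitor of nucleoside transport and of phosphodiesterases, at 25 mg/kg each day from day 0, and muscle was taken on day 16. The comparison therefore asks what dipyridamole changed in muscle of mice that all had serum. Muscle without serum was not analysed here, with the vehicle for RA mice not given in the sources used here. Every sample has K/BxN in its genotype field, although the design text describes serum recipients, and a treatment text that names dipyridamole stands on all 8 samples, so groups were taken from the sample titles.

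A cullin is a long scaffold that holds a RING subunit, which brings the ubiquitin-loaded enzyme, at one end and a substrate adaptor at the other. Kelch-like proteins bind CUL3 directly through a BTB domain and their substrate through Kelch repeats. ASB proteins bind elongins B and C and CUL5, and F-box proteins bind SKP1 and CUL1. In the F-box group the letter after Fbx tells the substrate-binding part, with W for WD40 repeats, L for leucine-rich repeats and O for other or no known repeats. Several adaptors are known as muscle proteins: KLHL40 and KLHL41 stabilise thin-filament proteins and are mutated in nemaline myopathy, ASB2 directs the turnover of filamins, and FBXL22 sits at the sarcomere.

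The sequence just upstream of the start of 4 members is shown first. Klhl41 and Asb2 had the highest level per length of their families, and Klhl40 and Fbxl22 were the muscle members furthest above their median in 1 library. The 250 bases before the RefSeq transcript start (GRCm38.p6) are written 5′ to 3′ on the strand of the gene. They lie at chr2:69669870-69670119 on the plus strand for Klhl41, chr12:103356002-103356251 on the minus strand for Asb2, chr9:121777357-121777606 on the plus strand for Klhl40 and chr9:66514594-66514843 on the minus strand for Fbxl22. Capitals mark matches, on either strand, to an E-box (CANNTG, bound by myogenic factors among others), to the MEF2 motif or to the CArG box of serum response factor.
Klhl41 upstream: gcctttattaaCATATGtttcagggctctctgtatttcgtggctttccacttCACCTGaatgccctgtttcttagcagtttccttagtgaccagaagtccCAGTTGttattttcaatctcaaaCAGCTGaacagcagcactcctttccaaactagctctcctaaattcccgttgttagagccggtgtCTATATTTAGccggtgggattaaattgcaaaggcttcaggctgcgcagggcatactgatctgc
Asb2 upstream: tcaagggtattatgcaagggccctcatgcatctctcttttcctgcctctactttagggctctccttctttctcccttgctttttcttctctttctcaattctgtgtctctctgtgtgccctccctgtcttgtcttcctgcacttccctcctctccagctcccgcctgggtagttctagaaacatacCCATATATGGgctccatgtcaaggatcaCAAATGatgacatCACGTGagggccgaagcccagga
Klhl40 upstream: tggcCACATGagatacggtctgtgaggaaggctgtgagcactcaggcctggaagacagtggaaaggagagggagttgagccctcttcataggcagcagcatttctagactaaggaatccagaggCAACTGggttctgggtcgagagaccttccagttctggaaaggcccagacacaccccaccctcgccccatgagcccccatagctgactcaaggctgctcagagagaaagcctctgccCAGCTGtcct
Fbxl22 upstream: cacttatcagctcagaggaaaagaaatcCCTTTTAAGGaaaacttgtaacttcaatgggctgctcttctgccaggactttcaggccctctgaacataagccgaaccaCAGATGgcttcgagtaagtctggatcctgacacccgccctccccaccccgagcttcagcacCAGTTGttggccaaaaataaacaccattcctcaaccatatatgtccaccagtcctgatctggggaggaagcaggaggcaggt
The Klhl41 sequence held 4 E-boxes and 1 MEF2 match, CTATATTTAG. The Asb2 sequence held 2 E-boxes and 1 CArG match, CCATATATGG. The Klhl40 sequence held 3 E-boxes and neither of the other motifs, and the Fbxl22 sequence held 2 E-boxes and 1 CArG match, CCTTTTAAGG. No match of 1 motif overlapped a match of another in these 4 sequences.

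An E-box is common in windows of this length and was present in 66.2% of the 32851 promoters in the RefSeq table. It stood in 66.1% of the 112 promoters listed for 78 of the 94 tested members. The MEF2 motif was present in 2.92% of all promoters and the CArG box in 1.47%. Among 17 members listed as striated muscle adaptors, 15 had a listed promoter, 19 in all, and 7 of the 19 (36.8%) held a MEF2 match and 3 (15.8%) a CArG match. The genes with a MEF2 match were Klhl33, Klhl41, Asb5, Asb12, Asb14, Asb16 and Asb18, and those with a CArG match were Asb2, Asb5 and Fbxl22. The 93 promoters of the other tested members held 0 MEF2 and 0 CArG matches. A match is a run of letters in a window and not a measured binding site.

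Of the 126 members, 94 passed the low-count filter and were tested: 30 Klhl, 17 Asb, 23 Fbxo, 16 Fbxl and 8 Fbxw. The other 32 did not pass, and 14 of them had 0 counts in every library, namely 12 of the Fbxw genes, Asb9 and Fbxo43. A count of 0 allows up to 0.0592 CPM (counts relative to library size) at the greatest depth and 0.183 CPM at the smallest. These limits use unscaled totals, whereas every other CPM here includes a scaling factor (TMM). With that factor, 1 count in RA replicate 4 was 0.0845 CPM (Fbxl2), so the limit there is higher than the unscaled one. The remaining 18 had a few counts. Among the lowest that passed, Asb17 had 15, 20, 13 and 0 counts in RA replicates 1 to 4 and 7, 13, 4 and 6 in RA+Dipy. Just outside, Klhl10 had 21, 7, 9 and 5 counts in RA and 13, 11, 6 and 4 in RA+Dipy. Thus 15 of 23 Fbxw genes were too low to test at this depth, whereas 17 of 18 Asb genes could be tested.

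Levels were compared between genes as CPM per kb of exon, meaned over the 8 libraries. Klhl41 was highest at 198 CPM per kb, followed by Asb2 at 171. Klhl40 (99.7), Asb5 (84.9), Klhl31 (67.0), Asb11 (54.7), Asb8 (47.6), Klhl21 (45.8), Asb10 (45.4) and Klhl33 (38.1 CPM per kb) came next. The highest F-box members were Fbxw5 at 26.2, Fbxo6 at 13.9, Fbxo9 at 13.1 and Fbxw11, which is the second β-TrCP and acts on β-catenin and IκB, at 11.9 CPM per kb. The Asb family had the highest median, 10.7 CPM per kb, against 4.22 for Fbxw, 2.07 for Fbxo, 1.98 for Klhl and 1.51 for Fbxl. The lowest tested member was Fbxl2 at 0.122 CPM per kb. Part of this order rested on RA replicate 4 and RA+Dipy replicate 1. Over the other 6 libraries Klhl41 (208) and Asb2 (177 CPM per kb) were still first, but Klhl40 was at 55.7, under Asb5 (96.0) and Klhl31 (67.4), and Klhl33 at 24.9, under Asb16 (34.4), Asb14 (32.4) and Klhl30 (31.8). Fbxl22 was at 5.64 CPM per kb over 8 libraries and 2.19 over 6, and Fbxw7 at 6.71 and 4.00.

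**Figure D1:**
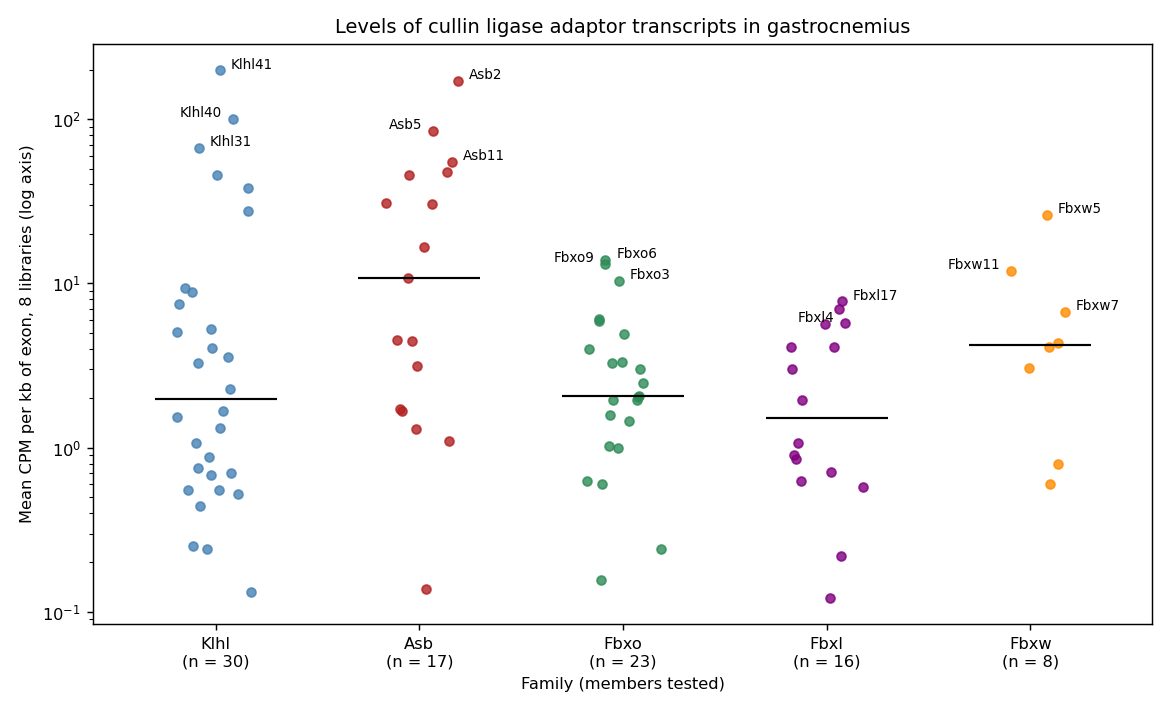
Mean level of each tested member over the 8 libraries, in CPM per kb of exon on a log axis, by family. Each point is a gene, the horizontal line is the family median and the names mark some of the highest genes of each family; Klhl41 (198) and Asb2 (171) stand at the top, and the Asb median (10.7) is the highest of the 5.

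Neighbours in this order often lay within the spread of the libraries. Klhl41 ran from 349 to 609 CPM and Asb2 from 379 to 905 CPM, and per kb Asb2 lay above Klhl41 in some libraries and below it in others. Klhl31 ran from 347 to 510 CPM over all 8 libraries and Asb8 from 104 to 134 CPM, the narrower spread. By contrast, Klhl40 ran from 114 to 799 CPM and Asb5 from 29.2 to 247 CPM.

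The wide ranges came mostly from 2 libraries. Across the 94 members, the SD of the log2 deviation from the median of the 8 libraries was 1.23 for RA replicate 4 and 0.727 for RA+Dipy replicate 1, and 0.217 to 0.317 in the other 6. In RA replicate 4, 45 of 94 members lay more than 2-fold from their median, 34 of them below it and 11 above. Of all 12755 genes tested, 5064 did so there, 2672 below and 2392 above, so the departure was not particular to the members. In RA+Dipy replicate 1 the number was 15 members, with 11 below and 4 above, beside 2573 of all genes. In each other library it was between 0 and 2 members, beside 79 to 410 of all genes. RA replicate 4 was the lowest library for 51 of 94 members and the highest for 20, beside 4308 and 4133 of the 12755 genes. RA replicate 4 and RA+Dipy replicate 1 were also the shallowest libraries, at 16.7 and 16.4 M (mega) counts against 21.4 to 50.6 M. Values that move with these libraries are therefore also given over the other 6, written as "with 6 libraries".

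**Figure D2:**
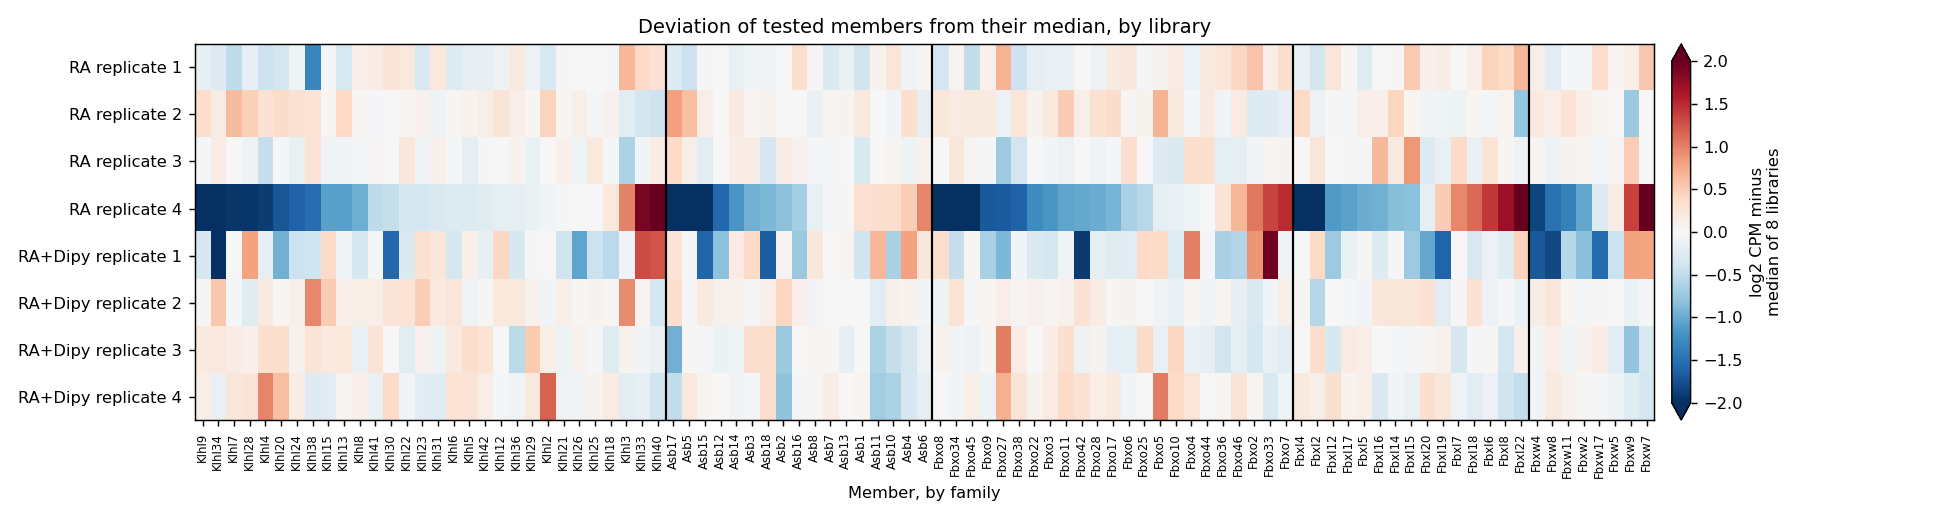
Deviation of 93 of the 94 tested members (columns, by family) from its median over 8 libraries, in log2 CPM, for each library (rows); the colour scale ends at 2 in either direction. RA replicate 4 departs most, with 45 members more than 2-fold from their median, and RA+Dipy replicate 1 next, with 15. Of all 12755 genes tested, 5064 and 2573 do so in these libraries.

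The departure of RA replicate 4 was not even across families. The median deviation there was -0.93 for Fbxo, -0.84 for Fbxl, -0.68 for Asb, -0.65 for Fbxw and -0.33 for Klhl on the log2 scale, against -0.04 for all genes tested. A few members stood at the other extreme: the muscle adaptors Fbxl22, Klhl40 and Klhl33, and also Fbxw7, which is not on the striated muscle list (deviation 2.51). Fbxl22 was at 114 CPM in RA replicate 4 and between 5.20 and 14.1 CPM in the other 7 libraries. Klhl40 was at 799 CPM there and at 360 CPM in RA+Dipy replicate 1, against 114 to 185 CPM in the other 6, and Klhl33 showed the same pattern with 591 and 392 against 122 to 208 CPM. Other muscle adaptors went the other way. Asb5 was at 29.2 CPM in RA replicate 4 and 123 to 247 CPM elsewhere. The deviation there was -2.46 for Klhl34, -2.03 for Asb15, -1.58 for Asb12, -1.52 for Klhl38 and -1.16 for Asb14, so a rise in this library was not a trait of the muscle adaptors as a group. Klhl40 shares exon bases with Gm47108, Fbxl22 with Herc1 and Asb5 with Spcs3, each on the opposite strand. Reads in those bases cannot be assigned to one or the other, because the counting did not use strand. The same holds for other members, among them Klhl9, Klhl21, Klhl38, Fbxl5, Fbxo3, Fbxo7, Fbxo11, Fbxw4 and Fbxw8.

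Deviation was also related to base composition. Across the 94 members the Spearman correlation between deviation and GC content of the transcript was 0.41 for RA replicate 4 and -0.37 for RA+Dipy replicate 1, a description over genes that share a library. It was 0.56 for RA replicate 1, -0.43 for RA replicate 2, 0.30 for RA replicate 3 and -0.37, -0.27 and 0.08 for RA+Dipy replicates 3, 4 and 2, so libraries that do not stand apart also showed such values. Over the 12613 tested genes with a known GC content it was 0.36 for RA replicate 4 and -0.32 for RA+Dipy replicate 1. The 31 members of lowest GC (36.1% to 46.6%) had a median deviation of -1.06 in RA replicate 4, the 31 in the middle -0.35 and the 32 of highest GC (53.7% to 63.7%) -0.09. The median log2 fold change between the groups was 0.26, 0.13 and -0.19 from low to high GC with 8 libraries. With 6 libraries the medians were 0.06, 0.05 and -0.13. The part of base composition in any group difference was not tested.

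**Figure D3:**
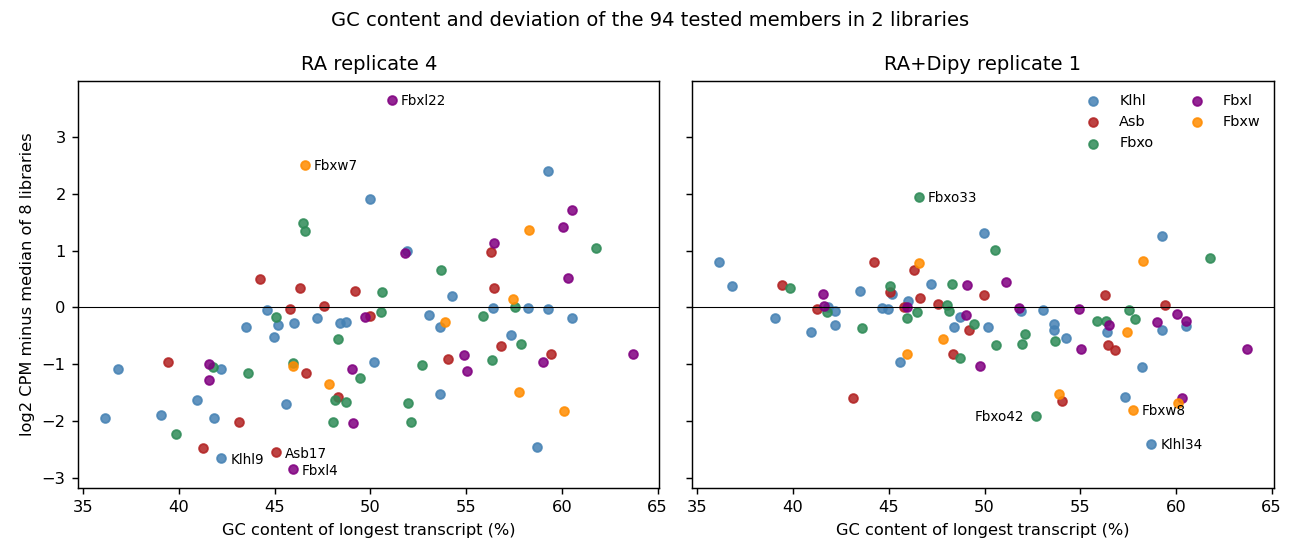
GC content of each tested member's longest transcript (x axis, %) against its deviation from the median of 8 libraries (y axis, log2 CPM) in RA replicate 4 and RA+Dipy replicate 1, coloured by family. The points rise with GC in the first (Spearman 0.41) and fall in the second (-0.37), within the range of the other libraries (-0.43 to 0.56), and Fbxl22 and Fbxw7 are the highest in RA replicate 4.

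No member differed between RA+Dipy and RA at an adjusted p under 0.05 in edgeR's quasi-likelihood test. The smallest adjusted p of a member was 0.882, and 0 of 94 members and 0 of 12755 genes (0%) were called. At an unadjusted p under 0.05 there were 3 members, or 3.19%, beside 488 of all genes tested, or 3.83%. DESeq2 called 0 members and 0 genes as well, with 3 members at an unadjusted p under 0.05. The 2 groups did not overlap for 2 members (2.13%), Fbxl8 and Fbxo44, both lower in RA+Dipy, beside 2.72% of all genes. These shares are near or under those of all genes. By direction, 54 members were higher and 40 lower in RA+Dipy, and their median log2 fold change was 0.09 beside 0.02 for all genes.

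Without RA replicate 4 and RA+Dipy replicate 1, 0 members and 0 of 12796 genes were called. At an unadjusted p under 0.05 there were again 3 members, Asb11, Asb18 and Fbxw7, beside 11.4% of all genes. The groups did not overlap for 7 members (Klhl6, Klhl29, Asb11, Asb18, Fbxo44, Fbxl8 and Fbxw7) beside 14.1% of all genes. The median log2 fold change of the members was then 0.01. Another fit, limma-voom with library weights, kept all 8 libraries and gave these 2 the weights 0.110 and 0.174. It called 138 genes (1.08%) and 0 members, with Asb11 closest at an adjusted p of 0.0708. At an unadjusted p under 0.05 it gave 18 members (19.1%), under the 28.3% of all genes. Removing both libraries changed the sign of 18 of the 94 fold changes.

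**Figure D4:**
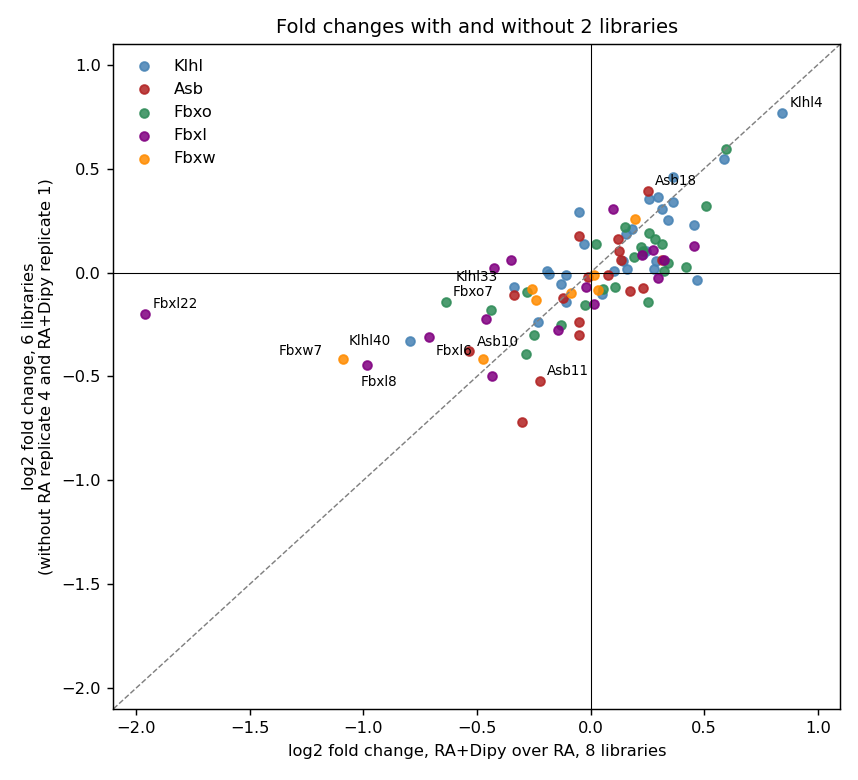
Log2 fold change of each tested member, RA+Dipy over RA, with all 8 libraries (x axis) and with 6 libraries (y axis); the dashed line marks equal values. Fbxl22 lies at -1.96 with 8 libraries and -0.20 with 6, whereas Klhl4 (0.84 and 0.77) and Asb10 (-0.53 and -0.38) lie nearer the line; none of the 94 was called in either fit.

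Kelch-like members of striated muscle ranged from Klhl41, the highest of all adaptors, to Klhl38 at 1.68 CPM per kb, and none of them passed the test between the groups. Klhl41 was at 554, 495, 506 and 349 CPM in RA and 493, 545, 609 and 454 CPM in RA+Dipy, with RA replicate 4 the lowest of all and the other libraries overlapping. Its log2 fold change was 0.14 (SE 0.26, unadjusted p = 0.601). Klhl40, which stabilises nebulin and leiomodin 3, was at 185, 114, 168 and 799 CPM in RA and 360, 118, 136 and 114 CPM in RA+Dipy. Its log2 fold change was -0.80 (SE 0.65, unadjusted p = 0.244), the smallest p of a lower Klhl gene. It was 0.25 without RA replicate 4, when RA+Dipy replicate 1 stayed in, and -0.33 with 6 libraries. Of the transcripts of its partners, Neb was at 1680, 2807, 1786 and 1270 CPM in RA and 1842, 1949, 2686 and 3057 CPM in RA+Dipy. Lmod3 was at 192, 135, 165 and 323 CPM in RA and 287, 191, 192 and 158 CPM in RA+Dipy, highest in the same 2 libraries as Klhl40.

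Klhl31, which directs the turnover of filamin C, was at 501, 403, 460 and 347 CPM in RA and 510, 494, 404 and 363 CPM in RA+Dipy, a log2 fold change of 0.05 (SE 0.26), or -0.11 with 6 libraries. Klhl33 had 208, 122, 152 and 591 CPM in RA and 392, 164, 152 and 141 CPM in RA+Dipy. Its value of -0.34 (SE 0.54) was 0.43 without RA replicate 4, when RA+Dipy replicate 1 stayed in, and -0.07 with 6 libraries. Klhl30 was lowest in RA+Dipy replicate 1 at 29.4 CPM and at 63.0 to 115 CPM elsewhere, with a log2 fold change of -0.03 (SE 0.39), or 0.14 with 6 libraries. Klhl34 was at 1.27 CPM in RA replicate 4 and 1.32 CPM in RA+Dipy replicate 1, against 6.15 to 10.7 CPM in the other 6, and its log2 fold change was 0.18 (SE 0.62). Klhl38 ranged from 1.27 to 7.38 CPM with overlapping groups (log2 fold change 0.59, SE 0.48).

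Over the whole Kelch-like family, 20 of the 30 tested genes were higher in RA+Dipy; the family median was 0.17 on the log2 scale, and 0.07 with 6 libraries. Klhl4 had the smallest p of the higher ones. It was at 0.611, 1.03, 0.586 and 0.169 CPM in RA and 0.726, 0.960, 1.08 and 1.72 CPM in RA+Dipy, so the groups overlapped and the depth was low (log2 fold change 0.84, SE 0.46, unadjusted p = 0.0971). Klhl24, Klhl9 and Klhl7 shared a dip in RA replicate 4, to 33.2, 5.33 and 5.49 CPM, against lowest values of 76.3, 27.4 and 15.1 CPM elsewhere. Klhl9 and Klhl13, which act with CUL3 in cell division, had log2 fold changes of 0.29 (SE 0.49) and 0.24 (SE 0.31), or 0.05 and 0.10 with 6 libraries. Klhl21, of the same process, stayed between 141 and 205 CPM. Klhl12, which marks a COPII coat protein, ran from 21.6 to 32.7 CPM and Klhl22 from 20.7 to 32.2 CPM. Klhl2 and Klhl3, adaptors for WNK kinases, had log2 fold changes of 0.36 (SE 0.33) and -0.05 (SE 0.47), or 0.46 and 0.29 with 6 libraries. The Klhl2 maximum, 12.6 CPM, came from RA+Dipy replicate 4, a library that the 6-library fit keeps. Every other library had 4.47 to 7.51 CPM of Klhl2. For Klhl3, the libraries of that fit had 1.26, 0.641 and 0.469 CPM in RA. Their RA+Dipy values were 1.55, 0.808 and 0.640 CPM, the highest from replicate 2. Klhl6, known from B cells, was at 1.12 to 1.76 CPM, while summed lymphocyte markers were at 1.46 to 3.30 CPM in RA and 1.39 to 2.00 CPM in RA+Dipy.

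**Figure D5:**
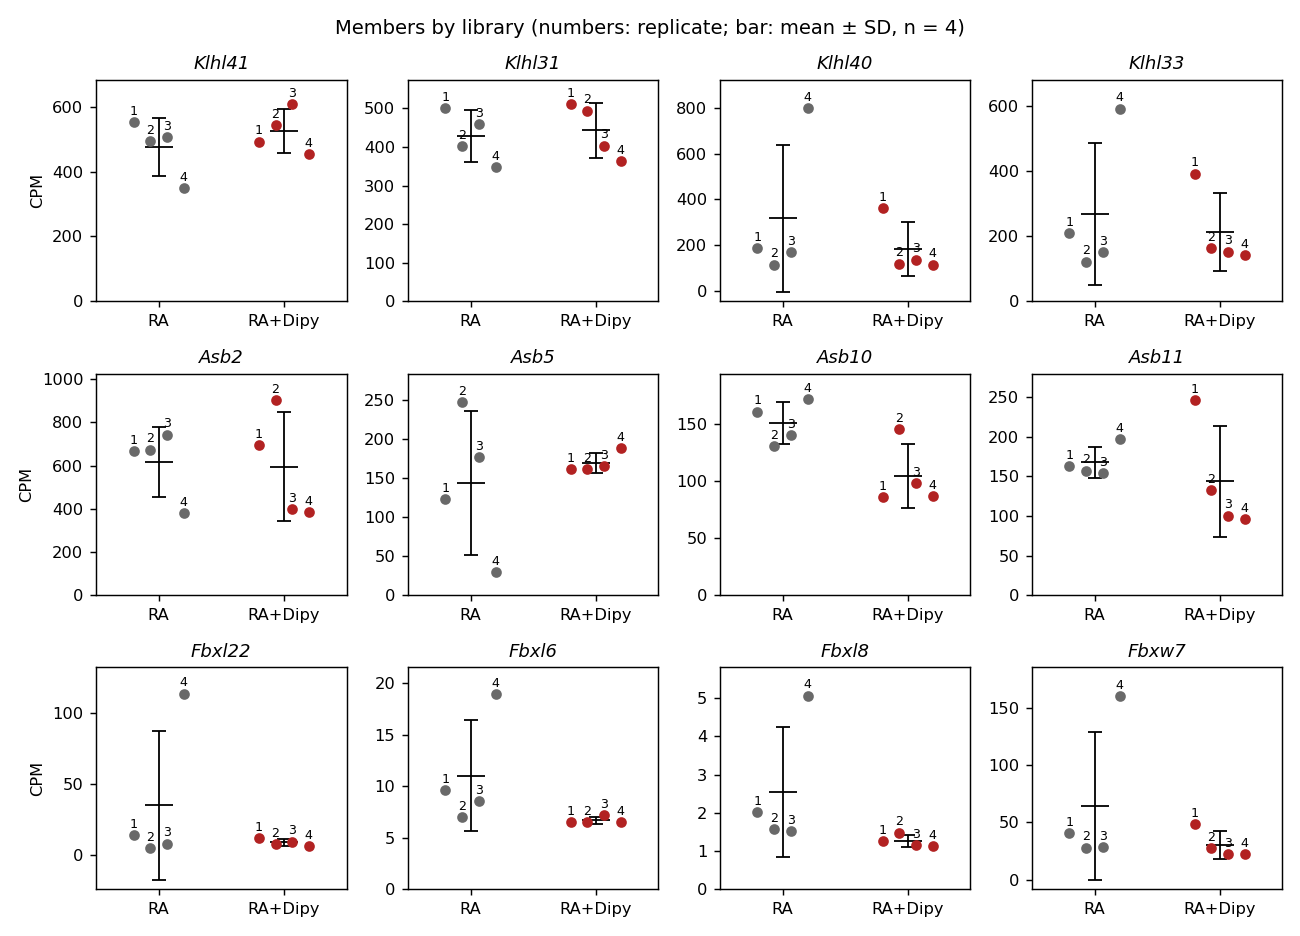
CPM of 12 members in each library, with replicate numbers beside the points and the mean ± SD (n = 4) of RA and RA+Dipy as bars. RA replicate 4 is highest for Klhl40 (799), Klhl33 (591), Fbxl22 (114) and Fbxw7 (160) and lowest for Asb5 (29.2), and without it the groups overlap for all 5.

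No ASB member passed the test, 8 of 17 were higher in RA+Dipy and the family median log2 fold change was -0.01. With 6 libraries 6 of 17 were higher and the median was -0.08. Asb2, the filamin adaptor, was at 666, 674, 743 and 379 CPM in RA and 694, 905, 398 and 384 CPM in RA+Dipy. RA replicate 4 and RA+Dipy replicates 3 and 4 lay between 379 and 398 CPM, and the other 5 libraries between 666 and 905 CPM. The log2 fold change was -0.05 (SE 0.36, unadjusted p = 0.896), -0.30 with 6 libraries and -0.58 with library weights. Of its substrates, Flna (log2 fold change -0.94, or -0.05 with 6 libraries) was at 317 CPM in RA replicate 4 and 49.8 to 88.5 CPM in the other 7 libraries. Flnc, the muscle filamin, was at 364 to 617 CPM, with group means of 487 ± 14.6 (SD) in RA and 514 ± 107 (SD) in RA+Dipy, n = 4 each.

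Asb10 and Asb11 had the most negative fold changes of the striated muscle ASB genes. Asb11 was at 163, 157, 154 and 197 CPM in RA and 246, 133, 100 and 96.0 CPM in RA+Dipy. RA+Dipy replicate 1 was the highest of all 8, while the other RA+Dipy libraries lay below every RA library. The log2 fold change was -0.22 (SE 0.33, unadjusted p = 0.515) with 8 libraries and -0.52 with 6, where the unadjusted p was 0.00685 and the adjusted p 0.418 in edgeR. Asb10 was at 161, 131, 140 and 172 CPM in RA and 85.8, 146, 98.0 and 87.0 CPM in RA+Dipy, with RA+Dipy replicate 2 inside the RA range. Its log2 fold change was -0.53 (SE 0.26, unadjusted p = 0.0647), the smallest p of a lower Asb gene, and -0.38 with 6 libraries.

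Asb18 was at 18.8, 20.5, 15.5 and 10.5 CPM in RA and 6.20, 21.3, 25.1 and 25.1 CPM in RA+Dipy. Its groups overlapped with 8 libraries (log2 fold change 0.25, SE 0.41) and did not with 6 (0.39, unadjusted p = 0.0291). Asb5 was at 123, 247, 177 and 29.2 CPM in RA and 161, 162, 165 and 188 CPM in RA+Dipy, with a log2 fold change of 0.23 (SE 0.50) that was -0.09 without RA replicate 4. Asb12 and Asb15, both muscle-enriched, were low in RA replicate 4 (10.3 and 14.0 CPM) and in RA+Dipy replicate 1 (17.4 and 18.9 CPM) against at least 28.1 and 49.2 CPM elsewhere. Their log2 fold changes were 0.08 (SE 0.36) and 0.12 (SE 0.49), or -0.01 and 0.10 with 6 libraries. Asb14 and Asb16 had log2 fold changes of 0.17 (SE 0.30) and -0.12 (SE 0.29), or -0.09 and -0.12 with 6 libraries. Among the broadly expressed members, Asb8 was at 104 to 134 CPM, Asb13 at 15.2 to 18.0 CPM and Asb7 at 6.95 to 9.52 CPM. Asb3 had the smallest p of the higher ones, with a log2 fold change of 0.31 (SE 0.28, unadjusted p = 0.291), or 0.06 with 6 libraries.

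All 3 members with an unadjusted p under 0.05 were F-box genes with leucine-rich repeats, and all 3 were lower in RA+Dipy with RA replicate 4 as the highest library. Fbxl22 (chr9:66508459-66514593, minus strand, GRCm38) was at 14.1, 5.20, 8.28 and 114 CPM in RA and 12.1, 8.12, 9.62 and 6.32 CPM in RA+Dipy, so that the other 3 RA libraries, at 5.20 to 14.1 CPM, spanned the RA+Dipy range. Its log2 fold change was -1.96 (SE 0.87, unadjusted p = 0.0471), -0.01 without RA replicate 4 and -0.20 with 6 libraries. Fbxl6 (chr15:76535721-76538746, minus strand) was at 9.63, 6.98, 8.51 and 18.9 CPM in RA and 6.53, 6.54, 7.16 and 6.48 CPM in RA+Dipy, with 1 RA library inside the range of the other group. Its log2 fold change was -0.71 (SE 0.32, unadjusted p = 0.0491), and -0.31 without RA replicate 4. Fbxl8 (chr8:105264648-105269326, plus strand) was at 2.01, 1.57, 1.52 and 5.07 CPM in RA and 1.25, 1.48, 1.16 and 1.12 CPM in RA+Dipy. All 4 RA libraries lay above all 4 of RA+Dipy, by 1.52 against 1.48 CPM at the nearest. The log2 fold change was -0.98 (SE 0.42, unadjusted p = 0.0415), and -0.43 without RA replicate 4. The adjusted p of all 3 was 0.882 in edgeR.

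The other Fbxl members had fold changes in both directions, and the family median was -0.08, with 7 of 16 higher. With 6 libraries it was -0.05, again with 7 higher. Fbxl4, a restraint on mitophagy through BNIP3 and NIX, was at 3.13 CPM in RA replicate 4, against 21.0 to 30.5 CPM in the other 7. Bnip3 was likewise lowest there, at 7.10 CPM against 41.9 to 69.9 CPM. Bnip3l, the gene of NIX, was not: it was at 33.55 CPM there and 31.4 to 49.4 CPM in the other 7. Fbxl5, the iron sensor that marks IRP2, ran from 15.4 to 33.7 CPM, and Fbxl17, which checks the pairing of BTB proteins, from 21.6 to 50.8 CPM, each lowest in RA replicate 4.

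Among the WD40 F-box genes, 3 of 8 were higher in RA+Dipy and the median log2 fold change was -0.16. With 6 libraries 1 of 8 was higher and the median was -0.09, and without RA+Dipy replicate 1 alone it was 0.07. Fbxw7, the adaptor for cyclin E and MYC, was at 40.7, 27.9, 28.3 and 160 CPM in RA and 48.5, 27.6, 22.7 and 22.1 CPM in RA+Dipy. RA replicate 4 was 160 CPM where the next highest library was 48.5 CPM. The log2 fold change was -1.09 (SE 0.58, unadjusted p = 0.0889), -0.08 without RA replicate 4, and -0.42 with 6 libraries (unadjusted p = 0.0396), where the groups did not overlap. Myc was at 3.68, 3.53, 3.32 and 1.52 CPM in RA and 3.50, 4.62, 4.00 and 3.96 CPM in RA+Dipy. Fbxw5, the most abundant of the family, was at 86.5, 82.4, 86.3 and 91.7 CPM in RA and 61.7, 83.8, 70.8 and 77.5 CPM in RA+Dipy, overlapping by 1 library of each group. Fbxw8, which works with CUL7, was at 6.93 CPM in RA replicate 4 and 5.54 CPM in RA+Dipy replicate 1 against 17.0 to 23.0 CPM elsewhere, with a log2 fold change of 0.19 (SE 0.46). Fbxw4 had the same pattern, with 4.14 and 4.62 CPM against 14.4 to 17.1 CPM.

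In the Fbxo group, 16 of 23 were higher in RA+Dipy, and the median fold change was 0.19 on the log2 scale, or 0.03 with 6 libraries. Fbxo38 had the smallest p of the higher ones. It was at 13.9, 22.0, 14.4 and 6.00 CPM in RA and 17.9, 19.4, 20.6 and 22.3 CPM in RA+Dipy (log2 fold change 0.51, SE 0.34, unadjusted p = 0.170), and the value was 0.32 with 6 libraries. Fbxo7, an adaptor tied to PINK1 and parkin, had the smallest p of the lower ones, with 12.8, 9.01, 10.7 and 28.6 CPM in RA and 9.63, 11.1, 8.74 and 9.56 CPM in RA+Dipy. Its value of -0.64 (SE 0.36, unadjusted p = 0.105) was -0.14 with 6 libraries.

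Fbxo2, Fbxo6 and Fbxo44 belong to the subgroup whose best known members bind glycoproteins. Fbxo6 and Fbxo44 are neighbours on chromosome 4 in GRCm38, at 148145716 to 148152140 and 148152800 to 148160482. Fbxo44 was at 6.36, 6.37, 7.03 and 5.66 CPM in RA and 5.48, 5.35, 5.0 and 5.60 CPM in RA+Dipy, and the groups did not overlap, by 5.66 against 5.60 CPM at the nearest (log2 fold change -0.25, SE 0.21, unadjusted p = 0.256). Fbxo6 was at 36.5, 32.4, 39.4 and 19.9 CPM in RA and 26.9, 32.6, 27.4 and 30.1 CPM in RA+Dipy. Fbxo2 ran from 0.462 to 1.35 CPM. Fbxo11, Fbxo3, Fbxo9, Fbxo45 and Fbxo8 were all lowest in RA replicate 4, at 12.4, 35.7, 14.2, 5.66 and 4.99 CPM. Fbxo33 was highest in RA+Dipy replicate 1 at 16.8 CPM and next in RA replicate 4 at 11.1 CPM, against 3.48 to 4.71 CPM elsewhere.

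No gene of the rest of the cullin pathway passed the test. Of 45 symbols listed for the scaffolds, linkers, NEDD8 cycle, CAND proteins and COP9 signalosome, 42 were in the tables and tested. Of these, 26 were higher and 16 lower in RA+Dipy, 0 were called and 0 had an unadjusted p under 0.05, and the median log2 fold change was 0.12, or -0.09 with 6 libraries. With 6 libraries the unadjusted p in edgeR was under 0.05 for Elob, Cops9, Eloc and Cdc34, all lower, and for Cand2, which was higher. The share over all genes was then 11.4%, and 0 genes were called. Ube2m, which loads NEDD8 onto cullins, was at 196, 126, 172 and 820 CPM in RA and 215, 149, 121 and 103 CPM in RA+Dipy, with the high value again in RA replicate 4 (log2 fold change -1.16, SE 0.58, or -0.40 with 6 libraries). Elob, the elongin B that ASB proteins bind, was at 189, 102, 170 and 456 CPM in RA and 258, 108, 96.8 and 76.1 CPM in RA+Dipy (log2 fold change -0.77, SE 0.52, or -0.71 with 6 libraries). Cul4b was at 4.18, 9.65, 6.48 and 2.20 CPM in RA and 11.4, 6.79, 9.20 and 11.3 CPM in RA+Dipy (log2 fold change 0.77, SE 0.41, or 0.44 with 6 libraries). Of the 3 cullins that the families use, Cul3 had a log2 fold change of 0.34 (SE 0.47), Cul5 of 0.20 (SE 0.24) and Cul1 of 0.07 (SE 0.33). With 6 libraries these were 0.11, -0.04 and 0.08.

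Of 28 cullin adaptors with other names, 27 were tested, 13 were higher and 14 lower, and 0 had an unadjusted p under 0.05 (median log2 fold change -0.02, or 0.09 with 6 libraries). Keap1, the Kelch adaptor for NRF2, had the smallest p, at 77.8, 67.7, 78.3 and 147 CPM in RA and 65.6, 70.2, 53.8 and 62.3 CPM in RA+Dipy (log2 fold change -0.55, SE 0.29, unadjusted p = 0.0813), and the value was -0.26 with 6 libraries. In that 6-library edgeR fit the unadjusted p was under 0.05 for Kctd2 (log2 fold change -0.45) and Kbtbd11 (0.89), where the share over all genes was 11.4%. Of 18 known substrates and partners, 17 were tested, with 9 higher and 8 lower and 1 at an unadjusted p under 0.05. This was Wnk4, at 10.9 CPM in RA replicate 4 and 0.560 to 1.48 CPM in the other 7, with a log2 fold change of -1.97, or -0.43 with 6 libraries. The 17 striated muscle members were themselves 9 higher and 8 lower, with a median log2 fold change of 0.05, or -0.08 with 6 libraries, and 1 (Fbxl22) at an unadjusted p under 0.05.

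Cell markers were set beside these values, since in bulk muscle fewer cells of a type and less RNA per cell cannot be told apart. The 12 fast-fibre markers summed to 185900 to 279500 CPM in RA and 186200 to 221100 CPM in RA+Dipy, far above the 7 slow-fibre markers (591 to 1650 and 373 to 1544 CPM), and the tissue is labelled gastrocnemius. The 12 macrophage markers summed to 141 to 360 CPM in RA and 197 to 395 CPM in RA+Dipy, and RA replicate 4 and RA+Dipy replicate 1 were the highest of their groups. Of these markers 10 were higher in RA+Dipy, 5 at an unadjusted p under 0.05 in edgeR (beside 3.83% of all genes tested) and 0 called. The 8 fibroblast markers summed to 1121 to 2399 and 1403 to 2610 CPM, with 7 higher, 3 of them at such a p. All 6 adipocyte markers were higher, 3 at such a p, at 220 to 352 and 290 to 903 CPM. The 903 CPM came from RA+Dipy replicate 4, with 290 to 591 CPM in the rest of that group. All 7 Schwann cell markers were lower in RA+Dipy, 3 at such a p. They were at 242 to 547 CPM in RA, highest in RA replicate 4, and 173 to 282 CPM in RA+Dipy. None of these was called. The 7 endothelial markers were at 243 to 255 and 199 to 313 CPM, and the 4 satellite cell markers at 2.54 to 5.42 and 3.72 to 4.54 CPM. No marker of these lists, whether it passed the filter or not, was at 0 in every library. The part of these cell types in any adaptor's value was not tested.

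Among the members themselves, likeness of pattern was taken over the 8 libraries as the Spearman correlation of log2 CPM. Fbxw17 (0.76), Asb16 (0.69) and Fbxl15 (0.67) were most like Klhl41. Fbxl16 (0.83), Asb17 (0.81) and Fbxo34 (0.76) were most like Asb2. These correlations include the 2 libraries that stand apart, and Klhl41 and Asb2 were both lowest in RA replicate 4. Over the other 6 libraries, 79 of the 94 members ranged by less than 2-fold from the lowest to the highest library, with a median of 1.46-fold. That ratio was 1.37 for Asb and 1.30 for Fbxw, the lowest, and 1.54 for Klhl, the highest.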

How the data were processed

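Poly(A) RNA of 8 gastrocnemius muscles, 1 library per mouse, was measured by RNA sequencing. The labels name a TruSeq library and the design text a directional NEBNext kit. The authors deposited raw read counts per protein-coding gene symbol. Per the design text and the submitters' processing notes, reads were trimmed with fastp 0.20.0, aligned by STAR 2.7.3a to GRCm38.p6 and counted by HTSeq without strand (annotation release not given in the sources used here). Output of the authors' DESeq2 1.44.0 was not used. The tables had 21859 lines; 24 symbols on more than 1 line were summed, which left 21833. Totals were 16.4 to 50.6 M counts per library. Limits for a count of 0 (3 counts) cover counting error alone, as there were no molecular identifiers.

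Genes were kept by filterByExpr of edgeR 4.0.16 (R 4.3.3) with a minimum count of 10, which left 12755, and scaled by TMM. RA+Dipy was compared with RA by edgeR's quasi-likelihood test with robust estimates and the group as sole term; p-values were two-sided and adjusted by Benjamini-Hochberg over every gene tested, and the threshold was 0.05. The fit was run on simulated data, in which all libraries of a group were drawn around the same mean per gene, scaled by depth. That run therefore does not cover libraries that stand apart. CPM uses TMM factors, except in the limits for a count of 0, and log2 CPM a prior count of 2. Positions, exon lengths and GC content come from GENCODE vM21 (GRCm38), in which all 126 members were found, and promoter sequences from RefSeq (GRCm38.p6). In that annotation 31 members share exon bases with another gene, in 26 cases one on the opposite strand.

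Members and lists were chosen with earlier results of these data known, as was the choice of the 2 libraries to leave out. Fold changes are given for members with an unadjusted p under 0.05, for the smallest p per family and direction and for 17 striated muscle members; levels are given for the 5 highest per family and for members of known role. The values of 1 member are not reported here. Members and list genes described outside this rule (Klhl6, Klhl29, Fbxo33, Fbxo8, Asb7 and Asb17 among them), and the fold changes of Klhl2, Klhl3, Klhl9, Klhl13, Fbxo44, Cul1, Cul3 and Cul5, were chosen after their values were seen. The 18 alternatives were other scaling factors and filters, DESeq2 1.42.0, limma-voom 3.58.1 with and without library weights, the replicate number as a block, no robust estimates, each library left out, and both libraries left out. Libraries of a group differed by more than sampling noise (smallest chi-square per degree of freedom 27.7). The design text gives 4 mice per group; the p-values measure the spread between these libraries.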

Additional observations from a re-analysis of the deposited data

Results flagged for a closer look

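Of 80 groups of 4 libraries examined, those of the members chosen by the naming rule and no others, 15 held a library set apart. Its distance from the nearest other exceeded Dixon's critical share of the range of its group. Chance alone marks about 1 in 20 unselected, independent groups. These members were partly picked by p-value in the same data and share 8 libraries, so the 15 cannot be judged against that rate. In RA, replicate 4 was the library set apart in all 8 cases. It was the highest for Klhl40 (799.4 CPM), Fbxw7 (160.5 CPM), Fbxl22 (113.8 CPM) and Fbxl8 (5.071 CPM). It was the lowest for Fbxw2 (22.31 CPM), Fbxl17 (21.55 CPM), Asb12 (10.31 CPM) and Fbxw4 (4.141 CPM). In RA+Dipy, replicate 1 was highest for Klhl33 (391.8 CPM) and Klhl40 (360.5 CPM) and lowest for Fbxw2 (25.87 CPM) and Fbxw8 (5.543 CPM). The other 3 were narrow groups with another library at the top: Asb5 in RA+Dipy replicate 4 (188.5 CPM), Fbxl14 in RA+Dipy replicate 2 (14.03 CPM) and Fbxl6 in RA+Dipy replicate 3 (7.159 CPM).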

How the results depend on the processing

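With library weights in limma-voom 138 genes were called, and 0 under each other alternative; 0 members were called under any of the 18. Members at an unadjusted p under 0.05 numbered 3 with all libraries, 18 with library weights (19.1%, beside 28.3% of all genes), 1 in limma-voom without them, 1 with upper-quartile factors, 2 with genes of at least 1 CPM on average, 4 without a filter, 3 with DESeq2 and 0 to 7 with 1 library left out (for RA replicates 1 to 4 they were 2, 7, 4 and 0, and for RA+Dipy 1, 1, 0 and 0). Replicate numbers did not pair the mice (correlations of -0.196, 0.112, 0.148 and -0.266); with a replicate block 0 genes were called and 0 members had an unadjusted p under 0.05. Of 467 fold changes of 26 members compared, 436 kept their direction and 31 changed it, in 12 members. Without both libraries the log2 fold change was -0.076 for Asb5, -0.012 for Asb12, -0.090 for Asb14, 0.14 for Klhl30 and -0.11 for Klhl31. With library weights it was -0.053 for Asb12, -0.086 for Asb14, 0.025 for Klhl30 and -0.16 for Klhl31, and with upper-quartile factors 0.038 for Klhl30. With 1 library left out in turn, the range was -0.33 to 0.11 for Asb2, -0.091 to 0.63 for Asb5, -0.17 to 0.24 for Asb12, -0.033 to 0.31 for Asb14, -0.17 to 0.39 for Asb15, -0.28 to 0.038 for Asb16, -0.040 to 0.49 for Fbxw8, -0.22 to 0.25 for Klhl30, -0.025 to 0.13 for Klhl31, -0.81 to 0.43 for Klhl33, -0.13 to 0.51 for Klhl34 and -1.36 to 0.25 for Klhl40. The cause was not tested. Without RA replicate 4, 24 of the 94 members changed sign. Depth limits the members under about 1 CPM.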
